A study of Homo sapiens with 12 samples.

Results

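The subject is how a prostate cancer line divided 4 enzyme steps between glucose and lactate among isozymes. It also covers how each isozyme gene, and PKM for pyruvate kinase, responded to inhibition of AKT, of EZH2 and of both. The genes were taken by name from the deposited table of read counts, and all 10 names (HK1, HK2, PFKL, PFKM, PFKP, ENO1, ENO2, LDHA, LDHB and PKM) matched 1 entry each among 58735 genes. RNA-seq was run on polyA RNA of C4.2B cells, a castration-resistant line of the LNCaP lineage, in 4 arms of 3 libraries, which come from separate plates of a single line, so that p-values measure the spread between these plates. Cells received DMSO, 0.25 μM of the AKT inhibitor ipatasertib (AKTi), 1 μM of the EZH2 inhibitor tazemetostat (EZH2i), or both agents (combination). EZH2i and combination cells had been pretreated with tazemetostat for 6 days, and every arm, DMSO included, was harvested 24 hours after a change to medium with charcoal-stripped serum. Library totals ran from 14133755 to 22276417 counts.

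Glycolysis turns glucose into pyruvate, and lactate dehydrogenase then turns pyruvate into lactate. Several steps can be run by enzymes from different genes, called isozymes, which catalyse the same reaction but differ in regulation and in the tissues that use them. Tumors often carry isozymes such as HK2 and LDHA, which respond to the transcription factors MYC and HIF-1, beside more evenly used forms such as HK1. MYC binds DNA at the letters CACGTG and HIF-1 at a site whose core is ACGTG.

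The 11 prostate luminal markers examined, among them KLK3, had counts in every library, and their summed level was 72703 to 76776 normalized counts in DMSO and 159975 to 164363 in the combination. By the edgeR test described below, 9 of them were higher in the combination (38.0% of all genes) and 2 were lower (35.2%). KLK3 had arm means of 22384 and 63415, and the lower markers were EPCAM (2069 and 1665) and HOXB13 (6925 and 4732). Of 20 markers of fibroblasts, immune, endothelial, basal, muscle and neuronal cells, 16 stayed under 10 counts in every DMSO library and 16 did so in every combination library, and the T cell marker CD3E and the basal marker KRT5 had 0 counts in all 12 libraries. The summed level of the 20 was 145 to 214 normalized counts in DMSO, 166 to 191 with AKTi, 417 to 451 with EZH2i and 309 to 385 with both agents. In this sum COL1A1 had arm means of 92.4 in DMSO and 272 with EZH2i, and VWF 42.1 and 96.5. The other fibroblast and endothelial markers (COL1A2, DCN, LUM, PECAM1 and CDH5) had at most 8 counts in any library. The share of counts from mitochondrial genes was 2.37% to 3.36% in DMSO, 3.93% to 4.29% with AKTi, 4.35% to 5.31% with EZH2i and 5.14% to 5.64% with both. The part of these shifts in the results was not tested. In bulk libraries, fewer cells of a kind and less RNA per cell cannot be told apart.

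The upstream sequences of 3 members are shown, picked by their responses: HK2 and LDHA had the largest falls of their steps, and LDHB is the partner of LDHA. The sequences of PFKP and ENO1, which had the largest falls of the PFK and ENO steps, are not shown. Each is the 250 bases before the RefSeq start (GRCh38.p14), written 5′ to 3′ on the strand of the gene, at chr2:74833877-74834126 (+) for HK2, chr11:18394313-18394562 (+) for LDHA and chr12:21657843-21658092 (-) for LDHB. Capitals mark CACGTG, and ACGTG or its reverse complement CACGT.
HK2: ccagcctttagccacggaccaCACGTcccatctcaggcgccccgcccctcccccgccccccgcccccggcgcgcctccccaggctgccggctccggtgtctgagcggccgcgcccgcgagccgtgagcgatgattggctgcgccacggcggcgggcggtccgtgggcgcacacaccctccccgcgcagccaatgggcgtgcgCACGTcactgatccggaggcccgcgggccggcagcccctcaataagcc
LDHA: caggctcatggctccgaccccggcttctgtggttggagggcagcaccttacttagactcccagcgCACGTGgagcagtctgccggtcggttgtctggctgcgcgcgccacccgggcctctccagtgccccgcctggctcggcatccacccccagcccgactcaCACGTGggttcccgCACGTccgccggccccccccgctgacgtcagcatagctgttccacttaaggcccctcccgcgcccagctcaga
LDHB: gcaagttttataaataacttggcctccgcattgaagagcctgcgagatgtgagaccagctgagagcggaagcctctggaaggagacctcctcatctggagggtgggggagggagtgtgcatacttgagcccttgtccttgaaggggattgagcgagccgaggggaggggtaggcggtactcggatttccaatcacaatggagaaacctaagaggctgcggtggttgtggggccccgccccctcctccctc
The LDHA window held CACGTG at 2 places, starting -185 and -87 bases from the RefSeq start, and 1 further ACGTG core outside them. The gene starts listed in the count table for LDHA (18394388) and HK2 (74833981) lie inside their windows. That listed for LDHB, on the minus strand (21757857), lies upstream of its window. The HK2 window held 2 ACGTG cores and no CACGTG, and the LDHB window held neither. All 10 members had a RefSeq promoter entry, and for 7 of them the entry began at the start of the GENCODE canonical transcript. Among these 7, CACGTG was found for 1 (LDHA) and ACGTG for 3 (HK2, ENO2 and LDHA), while PFKL, ENO1, LDHB and PKM held neither. In the ENO step, ENO1 without a match fell in the combination (log2 fold change -1.93), and ENO2 with 1 ACGTG core rose (0.84). Whether a match bears on a response was not tested. Over all 35116 promoter windows of the same length, searched on both strands, 6.34% held CACGTG and 18.5% held ACGTG, a count that includes the CACGTG windows. A match describes letters in a window and not binding.

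Levels are given on 2 scales. A normalized count is a read count divided by the size factor of its library, as the authors deposited it, and serves to compare arms for the same gene. To compare genes, normalized counts were divided by the gene length in kilobases that the count table lists. In DMSO on this per-kilobase scale, ENO1 was highest at 8058 ± 433 (SD, n = 3), followed by LDHA at 3910 ± 121 and PKM at 3681 ± 112, whose ranges overlapped. PFKM came next at 551 ± 60.0, then HK1 at 392 ± 28.8, PFKP at 384 ± 26.2 and LDHB at 351 ± 41.7, and these last 3 overlapped. HK2 at 297 ± 34.6 overlapped LDHB above it and PFKL at 262 ± 4.50 below it, and ENO2 was lowest at 18.7 ± 1.22. In the combination the order was ENO1 (2079 ± 74.1), PKM (1364 ± 54.9), LDHA (417 ± 35.8), PFKM (358 ± 3.84), HK1 (350 ± 14.1), PFKL (177 ± 0.554), PFKP (129 ± 10.7), LDHB (98.7 ± 7.33), HK2 (72.5 ± 6.67) and ENO2 (32.9 ± 8.17), and PFKM and HK1 were the only neighbours whose ranges overlapped. The listed lengths pool the exons of all transcripts of a gene, and with the length of the canonical transcript in their place PKM (13686) stood above LDHA (10835) in DMSO as well. The middle of the DMSO order rests on the length too, since with canonical lengths PFKM (1306) was followed by PFKL (806), LDHB (804), PFKP (708), HK1 (684) and HK2 (319.9), which put PFKL above LDHB, PFKP and HK1 and put HK1 below LDHB and PFKP.

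**Figure D1:**
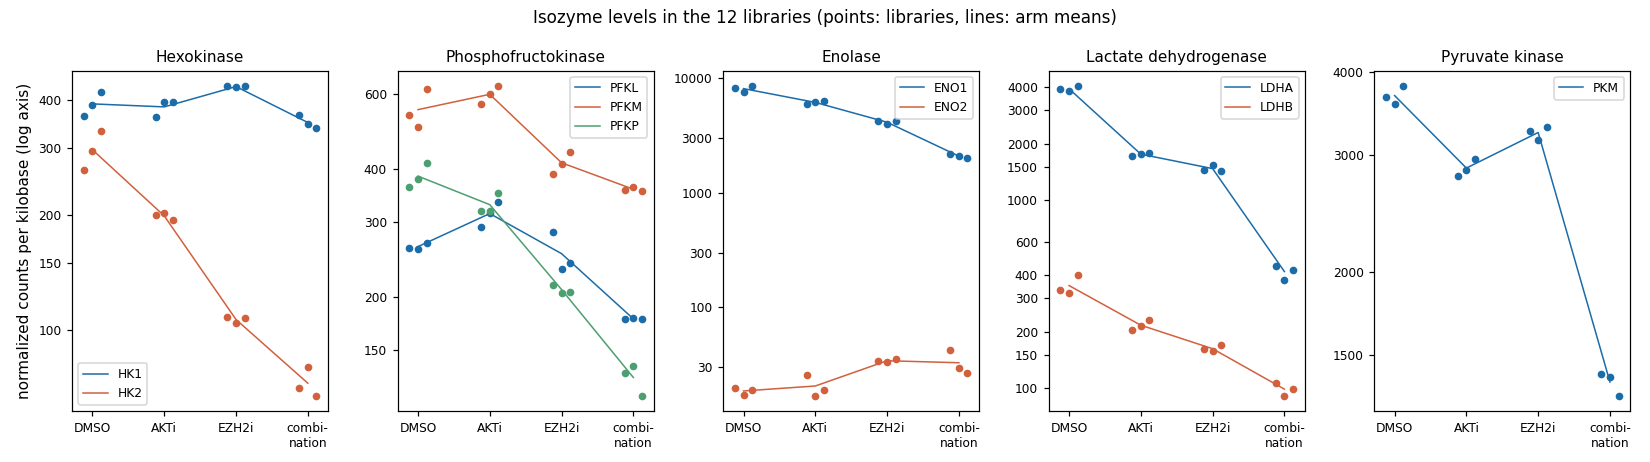
Normalized counts per kilobase of gene length (vertical log axis) in each library (points) with arm means (lines), 1 panel per step and a separate vertical scale in each. LDHA fell in every treated arm and was lowest in the combination, at 378 to 449 against 3793 to 4035 in DMSO, while HK1 stayed between 338 and 436 in all 12 libraries.

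Of the steps as a whole, lactate dehydrogenase lost most in the combination and hexokinase least. The summed per-kilobase level of the LDH genes in the combination was 12.1% ± 1.01 of the DMSO mean (SD, n = 3), that of the ENO genes 26.1% ± 1.01, of PKM 37.1% ± 1.49, of the PFK genes 55.5% ± 1.22 and of the HK genes 61.4% ± 2.29. With AKTi alone the PFK sum overlapped DMSO, at 98.5% to 109% against 95.0% to 108%, whereas the LDH sum was 46.3% ± 1.02. With EZH2i alone the LDH sum was 38.3% ± 1.20, the ENO sum 51.2% ± 1.92, the PFK sum 72.9% ± 1.84, the HK sum 78.6% ± 0.435 and PKM 88.0% ± 1.92.

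The counts of genes that changed were read against the share of all 16646 tested genes called in the same direction by edgeR's quasi-likelihood test at an adjusted p under 0.05. All 10 members passed the filter on low counts. In the combination against DMSO 9 members were lower (35.2% of all genes were) and 1 was higher (38.0%). With AKTi 6 were lower (21.9%) and 1 was higher (20.6%), and with EZH2i 7 were lower (31.5%) and 2 were higher (32.6%). Against AKTi the combination had 8 members lower (32.1%) and 1 higher (32.1%), and against EZH2i it had 9 lower (25.7%) and 0 higher (21.1%). The interaction, which asks whether the change with both agents differed from the sum of the single-agent changes on the log2 scale, was negative for 7 members (17.5%) and positive for 0 (10.7%). No member was higher at an unadjusted p under 0.05 either in these last 2 comparisons, by edgeR or by DESeq2. The median log2 fold change of the members in the combination was -1.48, against 0.06 over all genes. That all-gene median was 0.26 when libraries were scaled by their totals only, so fold changes are relative to the other genes.

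Hexokinase traps glucose in the cell as glucose 6-phosphate, and HK1 (chr10:69269984-69401884) is its broadly used form. HK1 had 2291, 2454 and 2652 normalized counts in DMSO, 2275, 2493 and 2495 in AKTi, 2739, 2730 and 2743 with EZH2i and 2300, 2184 and 2126 in the combination. HK2 (chr2:74833981-74893359), the inducible form that is raised in many tumors, had 1596, 1788 and 2015 in DMSO, 1216, 1230 and 1176 in AKTi, 655, 631 and 650 with EZH2i and 426, 485 and 408 in the combination. The 4 arms did not overlap for HK2, whereas HK1 in AKTi lay within the DMSO range or just below it and the EZH2i libraries were the highest. HK2 fell with AKTi (log2 fold change -0.57, SE 0.072, edgeR adjusted p = 3.27e-08), with EZH2i (-1.47, SE 0.074, adjusted p = 3.7e-19) and in the combination (-2.02, SE 0.077, adjusted p = 2.41e-23). The HK1 change was -0.02 with AKTi (adjusted p = 0.839), 0.16 with EZH2i (adjusted p = 0.0138) and -0.14 in the combination (adjusted p = 0.0245). The combination estimate for HK1 was above 0 under other scalings (0.05 with library totals and 0.04 with upper quartiles), and its call was lost when only genes with 10 or more counts in all libraries were fitted (-0.07, adjusted p = 0.226), without DMSO library C (-0.10, adjusted p = 0.136), without combination library B (-0.14, adjusted p = 0.0538) and without combination library C (-0.12, adjusted p = 0.0906). The EZH2i call for HK1 was lost without DMSO library A or B, AKTi library B or C, or EZH2i library A or C (0.11 to 0.13, adjusted p = 0.0553 to 0.166), and also when all genes with a count were fitted (0.15, adjusted p = 0.0542).

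HK2 took 42.0%, 43.1% and 44.1% of the summed HK1 and HK2 level in the DMSO libraries and 35.7%, 33.9% and 32.9% in AKTi. It took 19.9%, 19.4% and 19.8% with EZH2i and 16.1%, 18.7% and 16.6% in the combination. The ranges of the 4 arms were disjoint, with the lowest EZH2i library close to the highest combination library. Because a ratio of 2 genes within a library does not depend on how libraries are scaled, each isozyme ratio was tested on its log2 value by an exact two-sided permutation of libraries with and without an agent within each status of the other agent. The HK2/HK1 ratio fell by 0.39 on the log2 scale with AKTi and by 1.48 with EZH2i (exact permutation p = 0.005 each, the smallest that 400 arrangements allow, and 0.00667 after Benjamini-Hochberg adjustment over 12 tests of 6 ratios and 2 agents). The HK2/HK1 change with AKTi was -0.54 without and -0.24 with EZH2i. That with EZH2i was -1.63 without and -1.33 with AKTi. The difference was 0.30 (SE 0.10 from the spread of libraries), for which no separate test was made. With the canonical transcript length, chosen after the data were seen, the HK2 share was lower in each arm, 31.8% in DMSO and 11.3% in the combination.

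**Figure D2:**
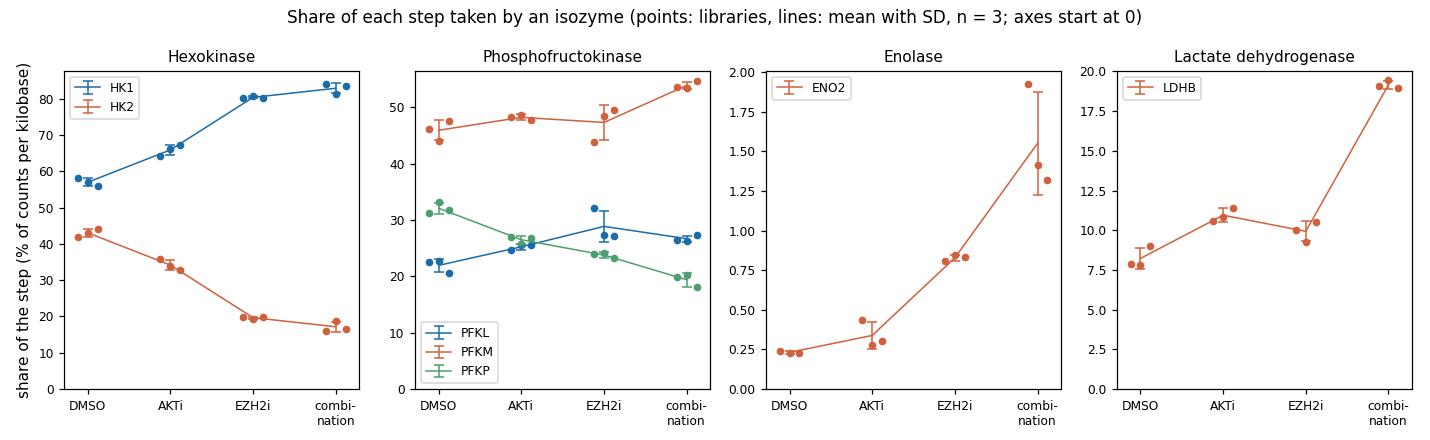
Share of the step taken by an isozyme, in percent of the summed counts per kilobase of the step's members (vertical axis from 0), in each library (points) with the arm mean and SD (lines and bars, n = 3). HK2 went from 43.1% in DMSO to 17.2% in the combination, PFKP from 32.1% to 19.4%, ENO2 from 0.231% to 1.55% and LDHB from 8.22% to 19.2%.

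Phosphofructokinase commits sugar to glycolysis and works as a tetramer of subunits from PFKL (liver type, chr21:44300051-44327376), PFKM (muscle type, chr12:48105139-48146404) and PFKP (platelet type, chr10:3066333-3137712). PFKP had 1751, 1827 and 1999 normalized counts in DMSO, 1541, 1537 and 1700 in AKTi, 1033, 989 and 993 with EZH2i and 641, 666 and 566 in the combination. PFKL had 2327, 2311 and 2387 in DMSO, 2601, 2814 and 2990 in AKTi, 2542, 2074 and 2146 with EZH2i and 1579, 1589 and 1581 in the combination. PFKP was lower in every treated library than in any DMSO library, while PFKL was higher than DMSO in all AKTi libraries, overlapped DMSO with EZH2i and was lower in the combination. PFKM ranged from 3667 to 4521 in DMSO, 4170 to 4580 in AKTi, 2851 to 3213 with EZH2i and 2596 to 2651 in the combination, so that AKTi overlapped DMSO and EZH2i lay above the combination.

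PFKP fell with each agent, by -0.21 with AKTi (SE 0.065, edgeR adjusted p = 0.00696), -0.88 with EZH2i (SE 0.066, adjusted p = 2.89e-14) and -1.56 in the combination (SE 0.069, adjusted p = 2.07e-21). Its AKTi call was lost without DMSO library C (-0.17, adjusted p = 0.0618) and with library totals as scaling (-0.16, adjusted p = 0.0509). PFKL rose with AKTi by 0.27 (SE 0.063, adjusted p = 6.59e-04), had a log2 fold change of -0.05 with EZH2i (adjusted p = 0.529), above 0 with library totals (0.10) and upper quartiles (0.07), and fell in the combination by 0.55 (SE 0.064, adjusted p = 1.5e-09). Without EZH2i library A, the highest of its arm, the EZH2i estimate for PFKL was -0.17 (adjusted p = 0.0156), and without library B it was 0.01. The PFKM change was 0.13 with AKTi (adjusted p = 0.0848), and 0.21 without DMSO library C (adjusted p = 0.00426), and 0.19 with either other scaling (adjusted p = 0.0116 and 0.00896). PFKM was not called with AKTi otherwise, apart from the fit of the 6 libraries alone (0.14, adjusted p = 0.0417), and PFKM fell with EZH2i by 0.41 (adjusted p = 3.14e-07) and in the combination by 0.60 (SE 0.061, adjusted p = 3.5e-11).

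PFKM took the largest share of the PFK step in every library, 45.9% ± 1.78 in DMSO, 48.2% ± 0.517 in AKTi, 47.3% ± 3.04 with EZH2i and 53.9% ± 0.674 in the combination. PFKP was the second isozyme in DMSO with 31.3%, 33.2% and 31.8% and the last in the combination with 19.9%, 20.3% and 18.0%. PFKL went the other way, from 22.5%, 22.8% and 20.6% to 26.5%, 26.2% and 27.3%. The exchange of places rests on the length used, since with canonical transcript lengths PFKL (28.6%) was already above PFKP (25.1%) in DMSO, but the change between arms does not. The PFKL/PFKP ratio rose by 0.33 with AKTi (exact permutation p = 0.01, adjusted p = 0.012) and by 0.68 with EZH2i (exact permutation p = 0.005, adjusted p = 0.00667). The PFKL/PFKP change with AKTi was 0.48 without and 0.19 with EZH2i. This difference of -0.29 (SE 0.11 from the spread of libraries) had no separate test. The PFKM/PFKP ratio rose by 0.42 and 0.54 (exact permutation p = 0.005, adjusted p = 0.00667 each). The PFKL/PFKM ratio changed by -0.08 with AKTi (exact permutation p = 0.47) and by 0.14 with EZH2i (exact permutation p = 0.235, adjusted p = 0.256), and with 1 library left out these estimates ran from -0.12 to -0.02 and from 0.07 to 0.17. Both are averages of changes of opposite sign, since the change with AKTi was 0.13 without and -0.30 with EZH2i, and that with EZH2i was 0.35 without and -0.08 with AKTi, a difference of -0.43 (SE 0.15 from the spread of libraries) for which no separate test was made. PFKM shares its first bases with SENP1 on the opposite strand, which had 393 to 693 normalized counts, and the strand setting of the counting is not given in the sources used here. The 4 skeletal muscle markers examined (MYH1, MYH2, CKM and ACTA1) had at most 7 counts in any library.

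Enolase makes phosphoenolpyruvate. ENO1 (chr1:8861000-8879250), the form of most tissues, had 42853, 40082 and 44615 normalized counts in DMSO, 31007, 32449 and 33275 in AKTi, 22173, 20715 and 22083 with EZH2i and 11348, 10996 and 10568 in the combination, with no overlap between arms. ENO2 (chr12:6913745-6923698), known from neurons and neuroendocrine cells, had 84.2, 74.1 and 81.4 in DMSO, 111, 72.9 and 81.3 in AKTi, 146, 143 and 150 with EZH2i and 180, 128 and 114 in the combination. All EZH2i and combination libraries lay above all AKTi and DMSO libraries for ENO2, and the AKTi and DMSO libraries overlapped.

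ENO1 fell by 0.39 with AKTi (SE 0.052, edgeR adjusted p = 1.01e-07), by 0.96 with EZH2i (SE 0.052, adjusted p = 3.23e-18) and by 1.93 in the combination. ENO2 was the 1 member higher in the combination, and the EZH2i arm held the same rise (0.88, SE 0.18, adjusted p = 3.75e-05). Its change with AKTi was 0.15 (SE 0.19, adjusted p = 0.562), which was -0.05 without AKTi library A, and the combination differed from EZH2i by -0.04 (SE 0.16, adjusted p = 0.855), with a sign that changed under other scalings and without combination library B or C (0.01 to 0.08). With those errors, ENO2 differences of the size of its AKTi estimate could not be detected at 62 to 220 counts a library. In absolute terms ENO2 stayed rare, and its share of the ENO1 and ENO2 sum was 0.242%, 0.227% and 0.224% in DMSO, 0.438%, 0.276% and 0.300% in AKTi, 0.806%, 0.844% and 0.833% with EZH2i and 1.92%, 1.41% and 1.32% in the combination. The ENO2/ENO1 ratio rose by 0.71 with AKTi and by 2.04 with EZH2i (exact permutation p = 0.005, adjusted p = 0.00667 each). The combination stood at 6.70 times the DMSO ratio, which combines a fall of ENO1 to 0.262 times its DMSO level with a rise of ENO2 to 1.79 times. The neuronal markers RBFOX3 and CHGA had at most 14 and 6 counts in a library and SYP 18 to 44. An alternative upstream exon of ENO2 overlaps LRRC23 on the same strand, which had 127 to 201 normalized counts with arm means of 135 in DMSO, 152 in AKTi, 179 with EZH2i and 181 in the combination. How reads in the overlap were assigned was not tested.

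Lactate dehydrogenase is a tetramer of subunits from LDHA (chr11:18394388-18408425), the form that predominates where pyruvate is reduced to lactate, and LDHB (chr12:21635342-21757857), the form of heart and other oxidative tissue. LDHA had 24227, 23557 and 25059 normalized counts in DMSO, 10701, 10929 and 11079 in AKTi, 8948, 9532 and 8919 with EZH2i and 2785, 2347 and 2633 in the combination. LDHB had 995, 957 and 1189 in DMSO, 608, 639 and 686 in AKTi, 479, 467 and 503 with EZH2i and 316, 272 and 295 in the combination. Neither gene had any overlap between arms, and both kept the order DMSO, AKTi, EZH2i, combination.

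LDHA fell by 1.15 with AKTi (SE 0.055, edgeR adjusted p = 8.1e-19) and by 1.40 with EZH2i (SE 0.055, adjusted p = 2.32e-22), and its combination value of -3.21 was the 111th lowest of the 16646 log2 fold changes. LDHB fell by 0.69 with AKTi (SE 0.082, adjusted p = 7.78e-09), by 1.11 with EZH2i (SE 0.082, adjusted p = 2.08e-14) and by 1.81 in the combination (SE 0.086, adjusted p = 2.17e-20). Both isozymes thus fell, and LDHA fell further. LDHB therefore took a larger share of a smaller sum, 7.88%, 7.80% and 8.99% in DMSO, 10.6%, 10.9% and 11.4% in AKTi, 10.0%, 9.26% and 10.5% with EZH2i and 19.1%, 19.4% and 18.9% in the combination. The LDHB/LDHA ratio rose by 0.78 with AKTi and by 0.62 with EZH2i (exact permutation p = 0.005, adjusted p = 0.00667 each). The rise with AKTi was 0.46 without and 1.11 with EZH2i, and that with EZH2i was 0.30 without and 0.95 with AKTi, a difference of 0.65 (SE 0.10 from the spread of libraries) for which no separate test was made. Of 19 pseudogenes named for the 10 members, 10 had any count and the largest was 17 in a library, which does not show how many reads shared by a gene and its copy were left uncounted.

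**Figure D3:**
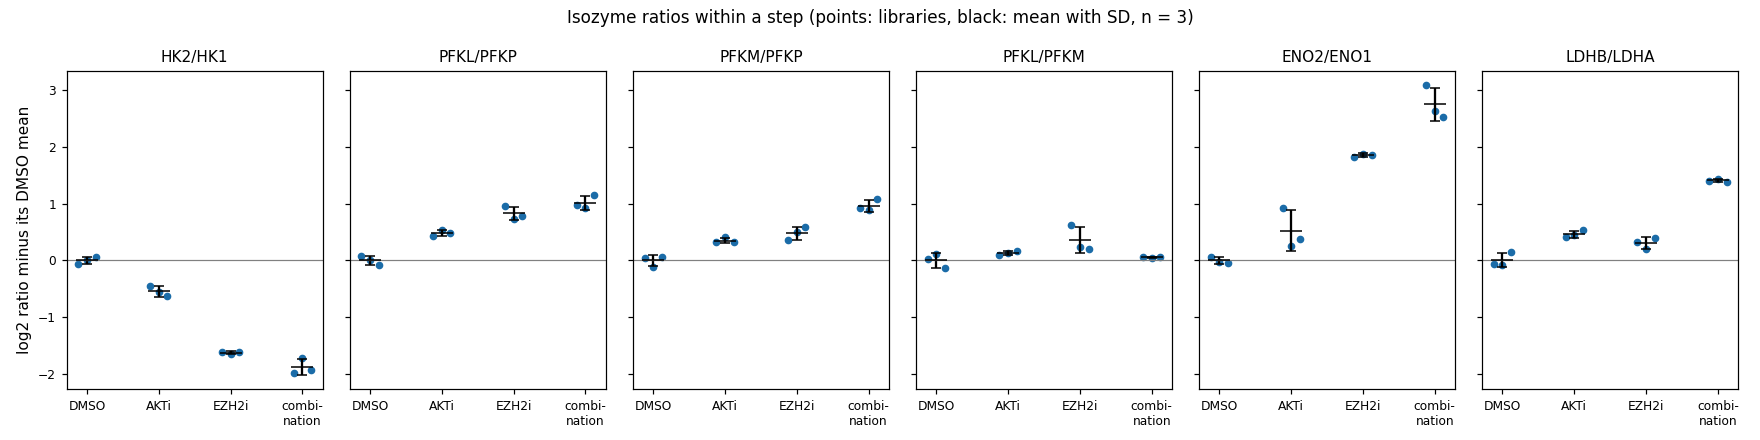
Log2 ratio of 2 isozymes of a step minus its DMSO mean (vertical axis, shared scale) in each library (points), with the arm mean and SD (black, n = 3). HK2/HK1 fell, PFKL/PFKP, PFKM/PFKP, ENO2/ENO1 and LDHB/LDHA rose, and PFKL/PFKM had arm means 0.13 (AKTi), 0.35 (EZH2i) and 0.05 (combination) above DMSO, of which EZH2i did not overlap DMSO.

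Between pairs of arms, a test of 3 libraries against 3 cannot give an exact permutation p under 0.1. The combination against EZH2i had this value for HK2/HK1 (change -0.24), PFKL/PFKM (-0.30), PFKM/PFKP (0.49), ENO2/ENO1 (0.90) and LDHB/LDHA (1.11), whose libraries did not overlap. PFKL/PFKP overlapped in that comparison (0.19, exact permutation p = 0.2), and PFKL/PFKM overlapped between the combination and DMSO (0.05, exact permutation p = 0.7).

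Pyruvate kinase makes pyruvate and ATP, and PKM (chr15:72199029-72231822) is its only gene with more than 2 counts in a library here, since the liver and red cell gene PKLR did not exceed 2. The counts do not separate the PKM1 and PKM2 splice forms. PKM had 31369, 30687 and 32583 normalized counts in DMSO, 23908, 24411 and 25287 in AKTi, 27927, 27086 and 28260 with EZH2i and 12021, 11899 and 11153 in the combination. The arms did not overlap, with EZH2i closest to DMSO and the combination far below the other arms. PKM fell by 0.35 with AKTi (SE 0.050, edgeR adjusted p = 3.16e-07) and by 1.41 in the combination (SE 0.051, adjusted p = 4.19e-24). Its change with EZH2i was -0.17 (SE 0.050, adjusted p = 0.00252), a call lost with library totals (-0.03, adjusted p = 0.6) and upper quartiles (-0.06, adjusted p = 0.306) as scaling.

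The combination was then set against the sum of the single-agent log2 changes for each isozyme. In the LDH, HK and ENO steps 1 isozyme passed this test and its partner did not, and the difference between partners was not tested. LDHA reached -3.21 where the sum was -2.55 (interaction -0.66, SE 0.078, edgeR adjusted p = 1.95e-08), while LDHB at -1.81 met its sum of -1.80 (interaction -0.01, SE 0.12, adjusted p = 0.967). HK2 at -2.02 also met its sum of -2.04 (interaction 0.02, SE 0.11, adjusted p = 0.908). HK1 ended at -0.14 against a sum of 0.14 (interaction -0.29, SE 0.081, adjusted p = 0.00659).

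All PFK genes went below their sums, PFKL with -0.55 against 0.22 (interaction -0.77, SE 0.090, edgeR adjusted p = 2.11e-08), PFKP with -1.56 against -1.09 (interaction -0.46, SE 0.096, adjusted p = 2.8e-04) and PFKM with -0.60 against -0.28 (interaction -0.33, SE 0.086, adjusted p = 0.00336). ENO1 ended at -1.93 against a sum of -1.35 (interaction -0.58, SE 0.074, adjusted p = 8.96e-08), and for ENO2 the interaction was -0.19 (SE 0.25, adjusted p = 0.62). PKM had the lowest interaction of the members, -0.88 (SE 0.071, adjusted p = 2.44e-12), with -0.35 for AKTi, -0.17 for EZH2i and -1.41 for both. The interaction call for HK1 was lost without AKTi library B or C (-0.23 each, adjusted p = 0.0577 and 0.0561), and that for PFKM without DMSO library B (-0.23, adjusted p = 0.051) or EZH2i library C (-0.25, adjusted p = 0.0506).

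**Figure D4:**
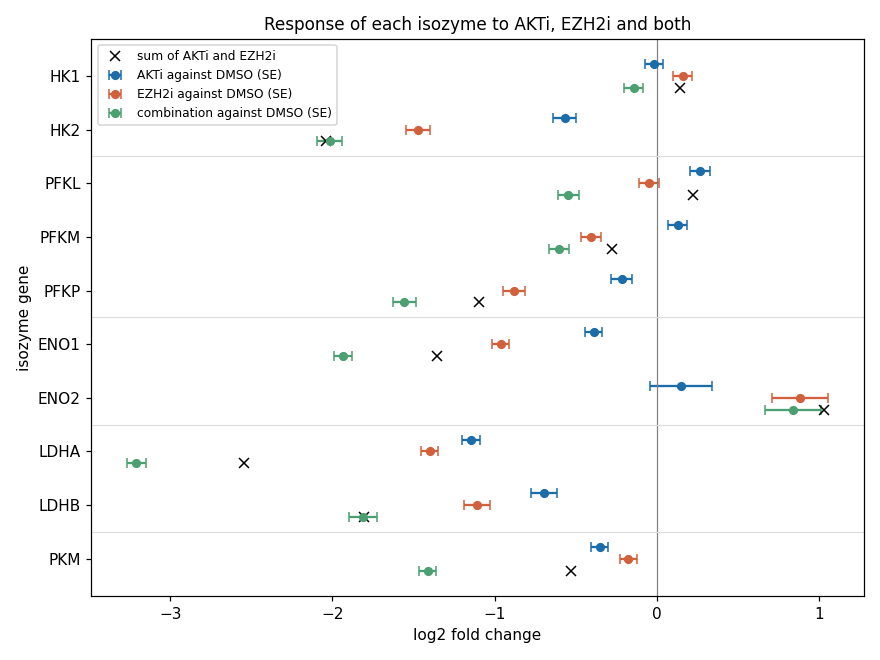
Log2 fold change against DMSO (horizontal axis) of each member with AKTi, EZH2i and both (points, bars are SE), and the sum of the single-agent changes (crosses). The combination lies at the cross for HK2 (-2.02 and -2.04) and LDHB (-1.81 and -1.80) and to the left of it for LDHA (-3.21 and -2.55) and PKM (-1.41 and -0.53).

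Of 11 other genes listed for these steps, 4 had enough counts for a test. They were ADPGK (an ADP-dependent glucokinase), ENO3 (muscle enolase), ENO4 and LDHD (a mitochondrial D-lactate dehydrogenase). In the combination 0 were lower (35.2% of all genes were) and 1 was higher (38.0%), ENO4 at 5 to 36 counts a library. At an unadjusted p under 0.05, 0 of the 4 were lower by edgeR's test. ENO3 exceeded ENO2 in DMSO, at 41.9 against 18.7 normalized counts per kilobase. LDHD had 780, 713 and 756 normalized counts in DMSO, 1241, 1253 and 1534 in AKTi, 1214, 1080 and 1101 with EZH2i and 774, 844 and 648 in the combination. LDHD thus rose with each agent given alone (0.85 and 0.60, edgeR adjusted p = 1.26e-10 and 6.67e-08) and overlapped DMSO with both (0.03, adjusted p = 0.75, or 0.23 and 0.015 with library totals as scaling; interaction -1.42, SE 0.12, adjusted p = 5.38e-12). Counting all genes listed for a step, the HK2 share was 34.8% in DMSO and 12.6% in the combination. The LDHB share in the combination was then 11.8%. These sums include ADPGK and LDHD, which do not catalyse the same reaction as the members, so the values are not shares of the step itself. LDHD had 320 normalized counts per kilobase in the combination, against 98.7 for LDHB.

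Enzymes of the other steps were lower as well. Of 12 listed, 8 could be tested, and in the combination 8 of 8 were lower (35.2% of all tested genes were). Their median was -1.53, from -1.73 for PGK1 to -0.77 for ALDOC. ALDOA had only 85 to 288 counts a library. With AKTi 6 of 8 were lower (21.9% of all genes) and with EZH2i 7 of 8 (31.5%). Of the 5 transport genes 4 could be tested, and all 4 were lower in the combination, against 35.2% of all genes. SLC2A1 (the glucose transporter GLUT1) fell by 1.05 and SLC16A3 (a lactate exporter) by 0.98. The smaller falls of BSG (0.29) and the lactate transporter SLC16A1 (0.13) were not called with library totals as scaling (-0.09 and 0.07). With AKTi 2 of the 4 were lower (21.9% of all genes) and 1 was higher (20.6%), SLC16A3 at 0.27 (edgeR adjusted p = 0.00378). With EZH2i 2 were lower (31.5%) and 0 higher (32.6%). SLC16A1 changed by -1.05 with EZH2i (edgeR adjusted p = 6.57e-19). It was higher in the combination than with EZH2i (0.92, adjusted p = 7.04e-17), and its interaction was positive (1.14, adjusted p = 1.24e-14).

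Over the 12 libraries, the protein-coding genes whose log2 CPM followed LDHA most closely were HMGB1 (Pearson r 0.999), PGAM1 (0.998) and RFC2 (0.997) among 11366 genes. Those closest to HK2 were RPL7L1, PTBP1 and PTDSS1 (0.994, 0.994 and 0.993), and those closest to ENO2 were TMEM38A, SP110 and CLDN8 (0.950, 0.940 and 0.935). Among the members, PFKP and ENO1 followed each other most closely (0.989), HK1 had no value above 0.691, with PKM, and ENO2 ran against HK2 (-0.842). These values are descriptions over libraries that share 4 arms.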

How the data were processed

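Reads were aligned with STAR to hg38, counted on genes with HTSeq and normalized with DESeq2, per the labels and the methods of the study. Tool versions, the gene annotation and strandedness were not given in the sources used here. The authors deposited raw counts for 58735 genes with a column of gene lengths, and a table of signal values, which are the DESeq2-normalized counts. Each of 56994 gene names occurring once equalled its count divided by 1 size factor per library (tolerance 1e-06). The study names 2 sequencing providers without assigning libraries, so no batch was modelled.

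Raw counts were tested in R 4.3.3 with the edgeR 4.0.16 quasi-likelihood test, with filterByExpr (minimum count 10, minimum total 15), TMM scaling, 1 mean per arm over 12 libraries and Benjamini-Hochberg adjustment over 16646 genes at a threshold of 0.05. Interaction was the log2 change with both agents less the log2 changes with each. The SE of an edgeR log2 fold change was its absolute value divided by the square root of the F statistic of the test. Shares and isozyme ratios were computed per library from counts per 1000 bases with numpy 2.4.6 and pandas 2.3.3 (Python 3.11.15) and compared by exact permutation. Libraries of 1 arm differed by more than counting noise (chi-square per gene 2.63 to 8.09), and each was kept as a replicate. Log2 CPM used a prior count of 2, and genes similar to HK2, PFKP, ENO2 and LDHA were the 3 with the highest correlation and a mean of at least 1; those of PFKP are not reported here. Alternatives were DESeq2 1.42.0, other scalings and filters, the 6 libraries compared alone, a replicate block, each library left out, counts without length and a wider set of isozymes per step. The members and gene lists were chosen with earlier results of these data known. On simulated counts for the combination against DMSO, edgeR recovered 163 of 197 changed genes (82.7%) with 16 false calls among 16151 genes. The planted changes, up or down, had a median estimated absolute log2 fold change of 0.996. They were far fewer than the 12186 genes called in the data, so these rates do not carry over to the data. Named genes were the members, the listed isozymes, enzymes, transport genes and markers, and the similar genes. Canonical transcripts came from GENCODE release 44, and promoters from RefSeq.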

Additional observations from a re-analysis of the deposited data

Results flagged for a closer look

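For 7 members the effect of AKTi differed between cells with and without EZH2i, by the interaction term of edgeR's quasi-likelihood test. On the log2 scale it was -0.88 for PKM, -0.77 for PFKL, -0.66 for LDHA, -0.58 for ENO1, -0.46 for PFKP, -0.33 for PFKM and -0.29 for HK1, with adjusted p-values from 2.44e-12 for PKM to 0.00659 for HK1. In all 7 the change with both agents was below the sum of the single-agent changes. Over all 16646 genes, 17.5% had a negative and 10.7% a positive interaction. For PFKL the effect of AKTi changed sign, at 0.27 without EZH2i and -0.50 with EZH2i.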

How the results depend on the processing

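The direction and call of HK2, PFKP, ENO1 and LDHA against DMSO, and those of LDHB, held under every scaling, filter and test tried, except for PFKP with AKTi as given above. The replicate letters A to C did not pair libraries, since deviations of same-letter libraries correlated between -0.06 and 0.07 (18 pairs, 0 above 0.1) and 4 of 12 libraries correlated best with their own letter. With the replicate block, 12146 genes were called in the combination against 12186 without it, and the block changed no call of a member. With library totals and upper quartiles as scaling, the sign of HK1 turned in the combination against DMSO (0.054 and 0.042), with AKTi (0.042 and 0.041) and in the combination against AKTi (0.012 and 5.2e-04), that of PFKL with EZH2i (0.098 and 0.072) and that of ENO2 in the combination against EZH2i (0.0063 and 0.021), while a minimum of 10 counts in every library turned the LDHB interaction (0.021). Members called higher with AKTi numbered 2 with library totals, upper quartiles or the 6 libraries alone, and those with EZH2i 1 when all genes with a count were fitted. With each library left out, members higher ranged from 1 to 2 with AKTi and with EZH2i, and log2 values from -0.065 to 0.032 for HK1 with AKTi, -0.049 to 0.25 for ENO2 with AKTi, -0.17 to 0.0070 for PFKL with EZH2i, -0.27 to 0.081 for ENO2 in the combination against EZH2i, -0.11 to 0.079 for the LDHB interaction and -0.066 to 0.094 for the HK2 interaction. The cause of these changes was not tested. Shares depend on the length used. Without division by length, shares in DMSO were 48.9% for PFKM, 0.188% for ENO2 and 4.13% for LDHB, and LDHB took 10.2% in the combination. With canonical lengths, shares in DMSO and the combination were 31.8% and 11.3% for HK2, 0.146% and 0.982% for ENO2 and 6.89% and 16.4% for LDHB, and PFKM took 52.0% in the combination. With all genes listed for a step, ADPGK and LDHD included, HK2 took 34.8% and 12.6%, and LDHB 11.8% in the combination. Ratio changes held their call with each library left out and do not depend on length.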
